A study of Rattus norvegicus with 6 samples.

Results

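The genes described here are 10 receptors and response genes of glial cell line-derived neurotrophic factor (GDNF), chosen by symbol from the 23091 genes of a count table of regenerated rat sciatic nerve: Ret, Gfra2, Gfra3, Ncam1, Etv4, Etv5, Spry1, Spry2, Spry4 and Dusp6. Each symbol had 1 row in the table, and all 10 genes passed the filter on low counts. All rats were male Sprague-Dawley rats of genotype WT with a sciatic nerve defect. In the GDNF-Gel/HA-Mg group (3 libraries, called implant 1 to implant 3) the defect received a conduit carrying GDNF. In the NC group (3 libraries, NC 1 to NC 3) the wound was closed with no implant. The groups differ in the whole conduit and not in GDNF alone, so the factor and its carrier cannot be told apart. The labels give no age, no time after surgery and no pooling, and they do not say that libraries came from separate animals. A p-value here thus reflects only how these samples vary, and that variation may be technical.

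GDNF binds a co-receptor of the GFR alpha family on the cell surface, and the complex activates the receptor tyrosine kinase Ret. Gfra2 and Gfra3 encode the co-receptors preferred by the related ligands neurturin and artemin, and Ncam1 encodes an adhesion molecule that can carry GDNF signals in cells without Ret. Signalling runs through adaptor proteins to the RAS-ERK and PI3K-AKT pathways. In mouse, Etv4 and Etv5, transcription factors of the ETS family, are induced by Ret signalling in kidney, and Etv4 also in motor neurons. The Sprouty proteins (Spry1, Spry2, Spry4) and the ERK phosphatase Dusp6 are induced by ERK signalling and limit it. In injured nerve, Schwann cells that have lost their axons are known to produce GDNF. Gfra1, the co-receptor preferred by GDNF itself, was not analysed here.

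Promoters of 7 of the 10 genes were found by symbol in RefSeq (build GRCr8). The 250 bases before the start of 4 of them are shown, Ret and Gfra3 as receptors whose levels spread widely over the libraries, and Spry4 and Dusp6 as feedback inhibitors whose levels spread less. Capitals mark matches on either strand to ACAAAG or ACAAT (cores bound by SOX factors), CCGGAA (an ETS core), TGANTCA (AP-1) or TGACG (a CRE core); these motifs do not overlap in the matches shown. The stretches lie at chr4:153040557-153040806 (minus strand), chr18:26600226-26600475 (minus strand), chr18:30702547-30702796 (minus strand) and chr7:35979354-35979603 (plus strand), each written 5′ to 3′ on the gene's own strand.
Ret: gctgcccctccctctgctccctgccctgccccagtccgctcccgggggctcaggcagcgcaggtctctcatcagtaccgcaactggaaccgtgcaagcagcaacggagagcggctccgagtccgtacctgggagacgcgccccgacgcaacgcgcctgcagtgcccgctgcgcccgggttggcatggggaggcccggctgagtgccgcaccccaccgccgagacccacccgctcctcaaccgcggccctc
Gfra3: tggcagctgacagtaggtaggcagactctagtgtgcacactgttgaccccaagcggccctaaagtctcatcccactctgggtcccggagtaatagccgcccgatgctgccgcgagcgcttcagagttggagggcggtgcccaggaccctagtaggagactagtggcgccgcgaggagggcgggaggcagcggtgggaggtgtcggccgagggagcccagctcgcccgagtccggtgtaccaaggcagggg
Spry4: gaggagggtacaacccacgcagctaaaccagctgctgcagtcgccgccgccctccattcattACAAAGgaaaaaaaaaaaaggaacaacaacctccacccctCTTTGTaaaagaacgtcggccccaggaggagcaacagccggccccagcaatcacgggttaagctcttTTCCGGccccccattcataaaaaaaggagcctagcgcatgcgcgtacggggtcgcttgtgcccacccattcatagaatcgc
Dusp6: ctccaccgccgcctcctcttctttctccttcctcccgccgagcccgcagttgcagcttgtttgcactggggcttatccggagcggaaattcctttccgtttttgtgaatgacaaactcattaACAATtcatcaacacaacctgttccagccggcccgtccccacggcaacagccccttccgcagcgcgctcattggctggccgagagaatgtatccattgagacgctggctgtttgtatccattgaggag
No searched motif lies in the windows of Ret and Gfra3, which have GC contents of 72.8% and 66.0%, against a median of 51.2% over 33469 promoters of the same length. Spry4 holds ACAAAG at 188 and 148 bases before the start and CCGGAA at 81 bases before it, and Dusp6 holds ACAAT at 128 bases before it. Of all promoters, 16.3% hold ACAAAG, 30.0% ACAAT, 12.6% CCGGAA, 6.34% TGANTCA and 18.2% TGACG. An EGR motif (GCGNGGGCG), not marked above, was also searched: Spry2 alone of the 7 genes holds it, as do 4.29% of all promoters. These matches describe the letters only.

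The libraries held 15897850 to 18491379 counts. Haemoglobin genes took 8.08% to 14.8% of the counts in implant libraries, and 1.19%, 1.02% and 25.2% in NC 1, NC 2 and NC 3. Schwann cells, the glia of the nerve, were followed with 8 lineage markers (among them Sox10, S100b and Erbb3), all present. Their mean log2 CPM (CPM is counts scaled to library size, here with TMM factors) was 7.22, 6.39 and 7.07 in implant 1 to implant 3, and 6.78, 7.75 and 5.03 in NC 1 to NC 3. NC 3 had the lowest Schwann lineage level and NC 2 the highest. Within NC 3, Sox10 stood at 21.8 CPM, its lowest value, while S100b stood at 571 CPM, below only NC 2. Neuronal markers were scarce, with 5 of 6 in the table and a summed level of 3.81 to 5.74 CPM over the 6 libraries. In bulk tissue, fewer cells of a type and less RNA per cell cannot be told apart.

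None of the 10 genes differed between implant and NC nerve past the test, and for every one of them the libraries of the groups overlapped. On the log2 scale the widest difference was in Etv4, at 6.54 ± 2.37 CPM with the implant and 3.02 ± 2.53 in NC (SD, n = 3 each). With p adjusted by Benjamini-Hochberg, edgeR's quasi-likelihood test called 0 of the 10 genes and 0 of 13999 tested genes (0.0%). At an unadjusted p under 0.05 it found 0 of the 10 and 241 of all genes (1.72%), DESeq2 called 11 genes (0.0786%), none of them among the 10, and limma-voom called 0. Groups failed to overlap for 0 of the 10 genes, against 5.68% of all tested genes. The log2 fold change (implant over NC) was positive for 6 genes and negative for 4, with a median of 0.14, beside a median of -0.01 over all tested genes. That median was -0.04 without implant 1 and -0.03 without NC 3, and 0.11 to 0.24 without any 1 of the other libraries. What separated the genes was their spread over libraries. The 4 receptors and Etv4 varied 3.49-fold to 9.84-fold between the highest and the lowest library, while Etv5 and the feedback inhibitors varied 1.5-fold to 2.2-fold.

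**Figure D1:**
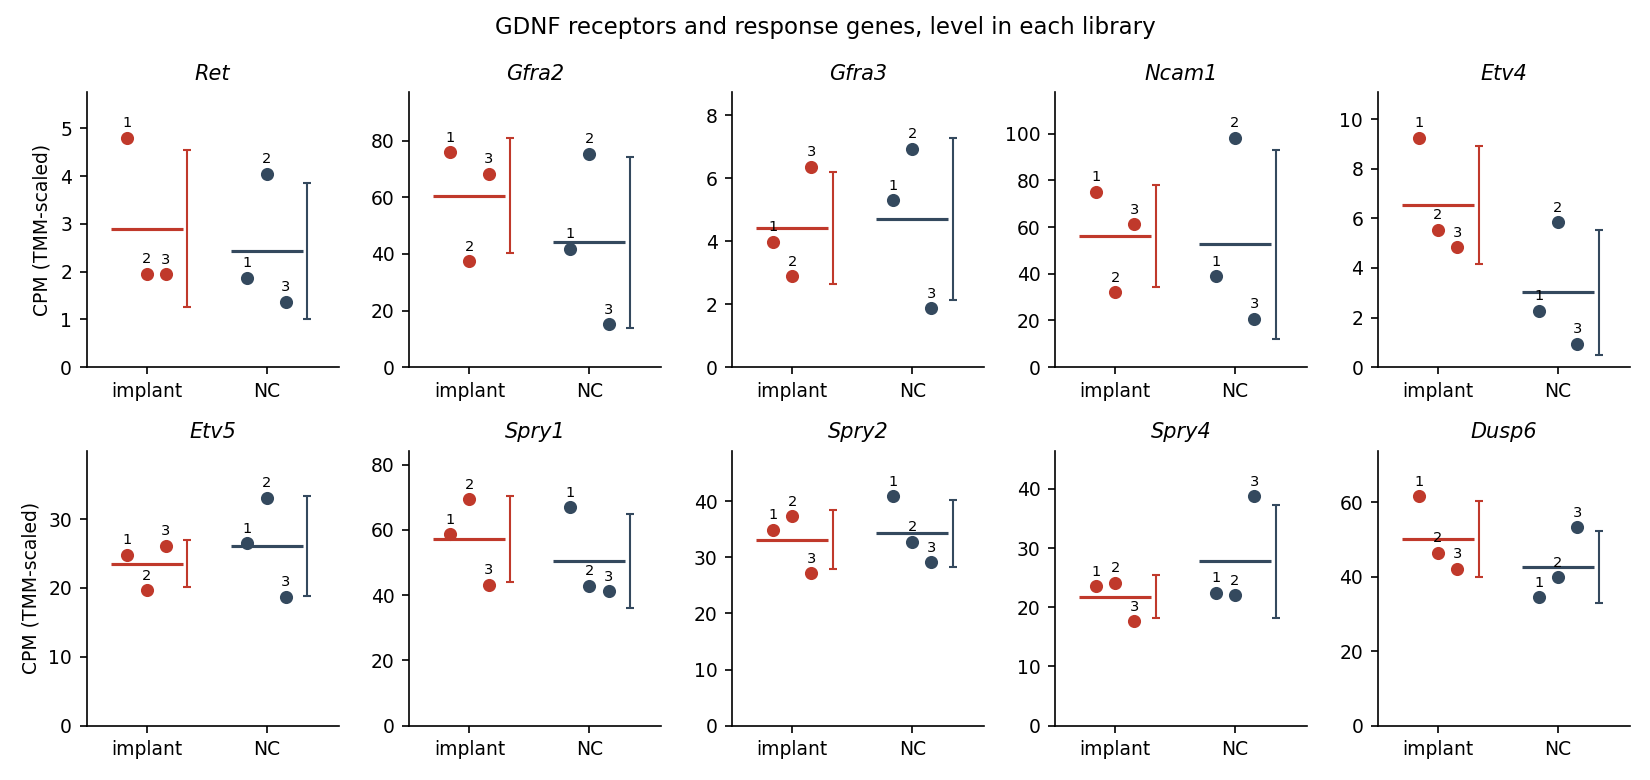
Level of each gene in CPM (y axis, linear) in the 3 implant libraries and the 3 NC libraries, numbered by replicate; horizontal lines are group means and error bars are SD (n = 3). The groups overlap for every gene, and NC 3 is the lowest library for Ret, Gfra2, Gfra3, Ncam1, Etv4, Etv5 and Spry1.

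Ret (ENSRNOG00000014751), the signalling receptor, was read 82, 36 and 33 times in implant 1 to implant 3, and 36, 70 and 19 times in NC 1 to NC 3. Its level was 4.80, 1.96 and 1.95 CPM in the implant libraries, and 1.87, 4.05 and 1.37 CPM in the NC libraries. One library of each group, implant 1 and NC 2, stood above the other 4, which lay between 1.37 and 1.96 CPM. The log2 fold change was 0.25 ± 0.58 (SE), with a 95% interval of -1.15 to 1.65 (edgeR adjusted p 1.00). Without implant 1 it was -0.30, and without NC 3 it was -0.03.

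Gfra2 (ENSRNOG00000014010), the neurturin co-receptor, stood at 76.0, 37.5 and 68.3 CPM in the implant libraries, and at 41.8, 75.4 and 15.3 CPM in the NC libraries. It was highest in implant 1 and NC 2, as Ret was, and implant 3 joined them. These were also the libraries richest in myelin markers, whose summed level over 8 genes was 14476, 845 and 17629 CPM in implant 1 to implant 3, and 873, 35437 and 2518 CPM in NC 1 to NC 3. In log2 CPM, Gfra2 and Ncam1 lay on the same side of their mean as the myelin list in 6 of 6 libraries, which gives direction and not size. The part of myelin content was not tested. Gfra2 had a log2 fold change of 0.46 ± 0.58, with a 95% interval of -0.95 to 1.86 (edgeR adjusted p 1.00). It was 0.05 without NC 3 and 1.08 without NC 2.

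Gfra3 (ENSRNOG00000020309), the artemin co-receptor, had 68, 53 and 108 counts in the implant libraries, and 102, 120 and 26 counts in the NC libraries. Its level was 3.98, 2.88 and 6.37 CPM in implant nerve, and 5.30, 6.94 and 1.88 CPM in NC nerve. NC 3 was lowest again, while implant 1, the top library for Ret and Gfra2, ranked below implant 3 and NC 1. Gfra3 had a log2 fold change of -0.10 ± 0.54, with a 95% interval of -1.41 to 1.21. Its sign turned without implant 2 (0.14), NC 1 (0.02) or NC 2 (0.28).

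Ncam1 (ENSRNOG00000031890), the adhesion molecule that serves as an alternative receptor, stood at 75.2, 32.2 and 61.2 CPM in the implant libraries, and at 39.0, 98.2 and 20.8 CPM in the NC libraries. The order of the libraries from NC 2 down to NC 3 was that of the Schwann lineage list. Ncam1 had a log2 fold change of 0.09 ± 0.60, with a 95% interval of -1.38 to 1.56. It was negative without implant 1 (-0.16), NC 1 (-0.06) or NC 3 (-0.28).

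Etv4 (ENSRNOG00000020792) had 158, 102 and 82 counts in the implant libraries, and 44, 101 and 13 counts in the NC libraries. Its level was 9.25, 5.54 and 4.83 CPM in implant nerve, and 2.28, 5.84 and 0.940 CPM in NC nerve. Only NC 2 reached into the implant range, where it lay above implant 2 and implant 3. The log2 fold change was 1.11 ± 0.66, with a 95% interval of -0.50 to 2.72 (edgeR p 0.144, adjusted p 1.00). Without NC 2 it was 1.99 (edgeR p 0.0120 before adjustment), and without NC 3 it was 0.69; neither passed after adjustment. Haemoglobin was highest and the Schwann lineage list lowest in NC 3, and their part in this value was not tested.

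Etv5 (ENSRNOG00000001785), the close relative of Etv4, stood at 24.8, 19.7 and 26.1 CPM in the implant libraries, and at 26.5, 33.1 and 18.7 CPM in the NC libraries. The NC libraries enclosed the implant libraries. Its log2 fold change was -0.15 ± 0.24, with a 95% interval of -0.73 to 0.42, which leaves out a 2-fold change either way. Without NC 2 it was 0.05.

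The feedback inhibitors, with Etv5, varied least over the libraries. Spry1 (ENSRNOG00000025371) stood at 58.7, 69.4 and 43.2 CPM in the implant libraries, and at 67.0, 42.9 and 41.2 CPM in the NC libraries. Spry2 (ENSRNOG00000010058) stood at 34.9, 37.3 and 27.2 CPM in the implant libraries, and at 40.9, 32.8 and 29.1 CPM in the NC libraries. Both were highest in implant 2 and NC 1. The fibroblast, neuron and repair Schwann marker lists were also highest in these libraries by mean log2 CPM, and their part in these values was not tested. The root mean square difference from Spry1 and Spry2 over the libraries, in log2 units, was 0.22 and 0.16 for the fibroblast list, 0.18 and 0.15 for the neuron list, and 0.40 and 0.49 for the repair Schwann list. Other lists lay about as near as the repair Schwann list. The values were 0.40 and 0.34 for the monocyte and macrophage list, and 0.42 and 0.40 for the endothelial list. Shh, a member of the repair Schwann list, was lowest in implant 2 and NC 1. The neuron list lay near the floor, with a summed level of 3.81 to 5.74 CPM, so its values carry little weight. Their log2 fold changes were 0.18 ± 0.26 (95% interval -0.46 to 0.82) for Spry1 and -0.05 ± 0.19 (-0.50 to 0.40) for Spry2. Spry1 was 0.02 without implant 2 and 0.46 without NC 1, while Spry2 turned positive without implant 3 (0.07) or NC 1 (0.11).

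Spry4 (ENSRNOG00000013851) stood at 23.6, 24.2 and 17.6 CPM in the implant libraries, and at 22.5, 22.02 and 38.7 CPM in the NC libraries. NC 3, the lowest library for the receptors, Etv4, Etv5 and Spry1, was the highest for Spry4, and the other 5 lay within 17.6 to 24.2 CPM. NC 3 was also highest in the endothelial and adipocyte lists, whose part in this value was not tested. Spry4 had a log2 fold change of -0.35 ± 0.27, with a 95% interval of -1.0 to 0.31, and it was -0.03 without NC 3. Dusp6 (ENSRNOG00000023896) stood at 61.6, 46.5 and 42.1 CPM in the implant libraries, and at 34.5, 39.8 and 53.4 CPM in the NC libraries. Its deposited counts were not whole in 5 of the 6 libraries, so part of its reads may have been shared out between genes. The log2 fold change was 0.23 ± 0.22, with a 95% interval of -0.31 to 0.78; it was 0.07 without implant 1 and 0.43 without NC 3.

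**Figure D2:**
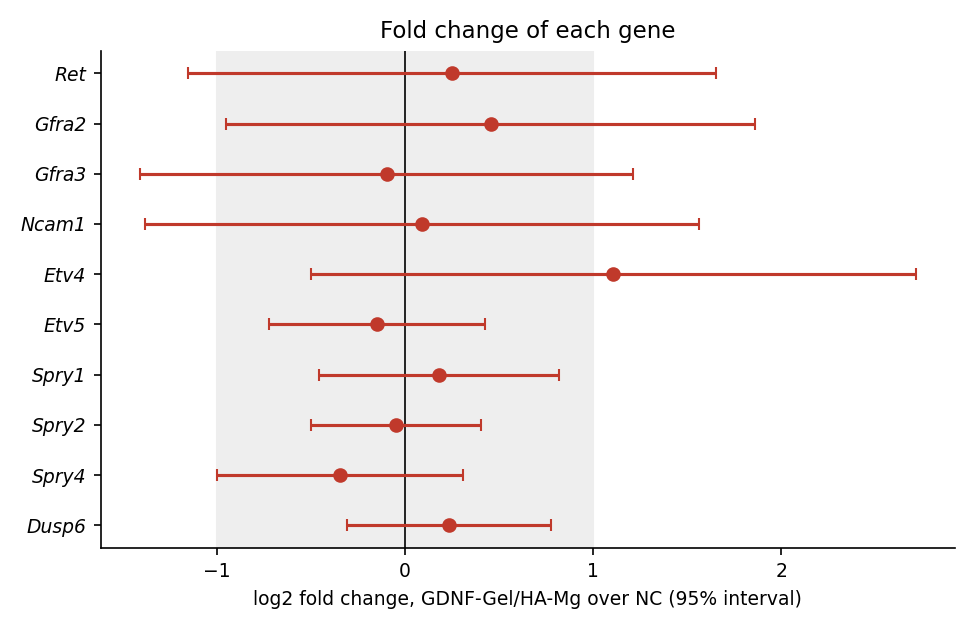
Log2 fold change of each gene (x axis, GDNF-Gel/HA-Mg over NC, edgeR) with its 95% interval; the grey band marks changes under 2-fold. All 10 intervals hold 0, and those of Etv5, Spry1, Spry2 and Dusp6 lie inside the band.

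The intervals set how much a change could have been missed. They left out a 2-fold change for 4 of the 10 genes (40%), against 65.8% of all tested genes. They left out a 4-fold change for 9 of the 10 genes, all but Etv4, against 88.3% of all tested genes. For Etv4 the interval ran from a fold of 0.707 to one of 6.57.

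Likeness of pattern over libraries was measured between genes and against marker lists. The measure was the root mean square difference between the log2 CPM of a pair of genes over the 6 libraries, each centred on its own mean. The closest pair was Spry1 and Spry2 (0.17 log2 units), followed by Gfra2 and Ncam1 (0.26). Likeness among the receptors was uneven: Ret and Gfra3 differed by 0.64, and Gfra3 was nearer to Etv5 (0.40) than to any other receptor (0.42 to 0.64). Against the Schwann lineage list, this difference was 0.20 for Gfra2, 0.27 for Ncam1, 0.40 for Gfra3, 0.54 for Ret and 0.59 for Etv4. It was 0.63 for Etv5 and 0.84 to 1.16 for Spry1, Spry2, Spry4 and Dusp6. This measure counts the size of swings as well as their direction. By direction alone, Etv5 lay on the same side of its mean as this list in 6 of 6 libraries. Gfra2, Gfra3 and Ncam1 did so in 5, and Ret and Etv4 in 4. For Spry1 and Spry2 the count was 3, for Dusp6 1 and for Spry4 0. From the myelin list, the root mean square difference was 1.96 for Ncam1 and 2.10 for Gfra2, the smallest of the 10 genes, and up to 2.70 for Spry1. The mean log2 CPM of that list ran from 3.73 in NC 1 to 10.1 in NC 2, a swing that enters the difference of every gene. The genes and the lists are read from the same 6 libraries, so these values describe this set of libraries.

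**Figure D3:**
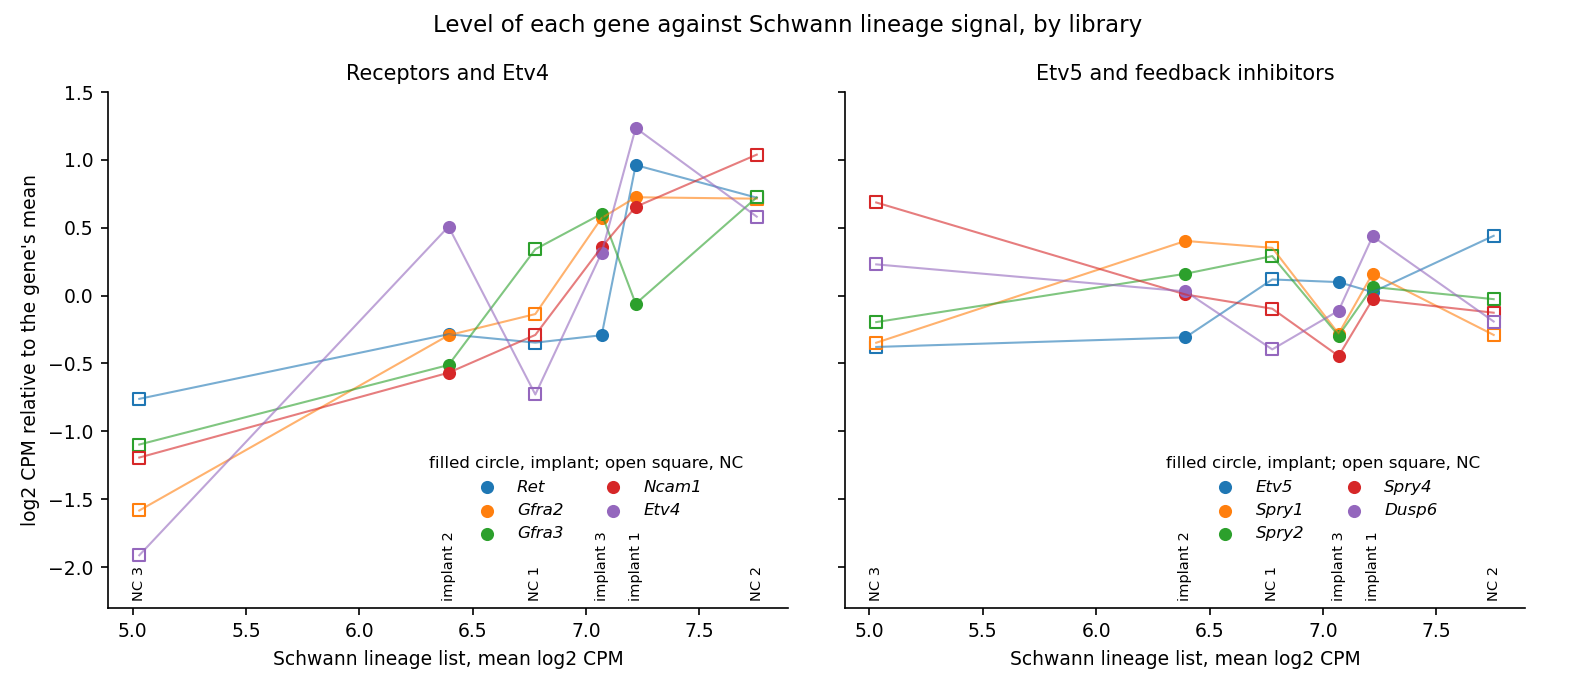
Level of each gene relative to its own mean (y axis, log2 CPM) against the mean log2 CPM of the Schwann lineage list (x axis) in the 6 libraries; filled circles are implant libraries, open squares are NC libraries, and lines join the libraries of a gene. The receptors, Etv4, Etv5 and Spry1 are lowest in NC 3, where the list is at 5.03, while Spry4 is highest there.

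Each gene was then expressed per Schwann lineage signal, as its log2 CPM minus the mean log2 CPM of the list in the same library. The span of Gfra2 over the 6 libraries was 2.31 log2 units in level and 0.54 per Schwann lineage signal. For Ncam1 these spans were 2.23 and 0.84, for Gfra3 1.82 and 1.15, for Ret 1.72 and 1.57, and for Etv4 3.15 and 1.62. For Etv5 and the 4 feedback inhibitors the span grew, to between 1.90 and 3.54. Gfra2 per Schwann lineage signal stood at -0.97, -1.16 and -0.97 in the implant libraries, and at -1.39, -1.51 and -1.09 in the NC libraries, where NC 3 reached into the implant range.

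Etv4 was the 1 gene of the 10 whose groups no longer overlapped on this scale. It stood at -3.99, -3.89 and -4.76 log2 units in the implant libraries, and at -5.51, -5.18 and -4.95 in the NC libraries. The group means were -4.22 ± 0.48 with the implant and -5.21 ± 0.28 in NC (SD, n = 3 each), a difference of 1.00. A two-sided exact permutation test gave p 0.1, the smallest that 3 against 3 allows, before any correction for the 10 genes. Any gene whose groups do not overlap gets this value, so the test adds nothing to the lack of overlap. Implant libraries lay wholly above NC on this scale for 0.171% of all tested genes and wholly below for 0.214%. On the plain CPM scale these shares were 2.8% and 2.88%. The scale adds the variation of the list to every gene that does not follow it, which makes separation rarer among such genes. With Sox10 alone as the denominator, chosen after seeing the data, Etv4 differed by 0.67 and the groups overlapped, because NC 3 stood at -4.37 among implant values of -4.25 to -5.03; 0.0286% of all tested genes lay wholly above NC on that scale. With Erbb3 alone, also chosen after seeing the data, the difference was 1.25 and the groups did not overlap, as for 0.464% of all tested genes in that direction.

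Etv4 and Etv5 encode closely related factors, and they ordered the libraries differently, a contrast picked after their values were seen. The log2 level of Etv4 minus that of Etv5 stood at -1.41, -1.81 and -2.41 in the implant libraries, and at -3.47, -2.48 and -4.16 in the NC libraries. The groups did not overlap, and implant libraries lay wholly above NC for 3.68% of all tested genes when set against Etv5 in the same way. Etv1, the third member of this subfamily, was read 1211, 637 and 886 times in the implant libraries, and 694, 1440 and 403 times in the NC libraries. Its highest count was in NC 2 and its lowest in NC 3.

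**Figure D4:**
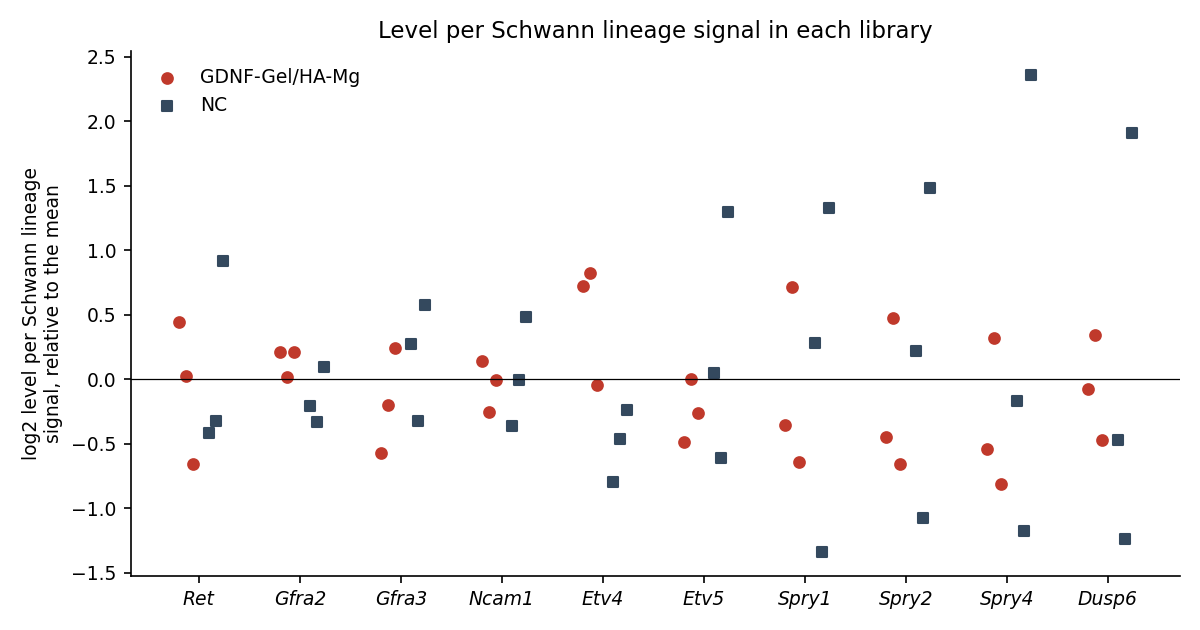
Log2 level per Schwann lineage signal of each gene, relative to its mean over the 6 libraries (y axis), with implant libraries as circles and NC libraries as squares. For Etv4 alone the 3 implant libraries lie above all 3 NC libraries. The feedback inhibitors spread furthest. NC 3, where the list is lowest, is highest for them and for Ret, Gfra3, Ncam1 and Etv5.

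For genes whose log2 CPM spanned at least 1.5 over the libraries, the 3 most similar genes were looked up over the 6 libraries, among genes whose mean log2 CPM was 2 or more. Gfra2 was closest to Kif11, a mitotic motor (0.11), Epb41l4a (0.16) and Nlgn3, an adhesion protein of the neuroligin family (0.17). Ncam1 was closest to Btbd11 (0.05), Sipa1l2 (0.11) and Rasl11b (0.11). Gfra3 was closest to the thiamine transporter Slc19a2 (0.11) and the lipid transporters Abca9 (0.15) and Abca8a (0.17). Ret was closest to the phosphatase Dusp14 (0.21), the semaphorin Sema7a (0.22) and Endod1 (0.24). Etv4 had no neighbour so near, with 2810021J22Rik at 0.42, Fam181b at 0.43 and Foxs1 at 0.46. The median difference from all candidates was 0.65 log2 units for Ret and 1.05 for Etv4.

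The ligands were scarce transcripts. Gdnf had 9, 16 and 1 counts in the implant libraries, and 27, 1 and 2 counts in the NC libraries, and did not pass the filter. These counts do not follow the group, and they measure rat transcripts, not the GDNF protein loaded in the conduit. Artn, which encodes artemin, had 17, 51 and 2 counts in the implant libraries, and 53, 9 and 6 counts in the NC libraries. Both ligands were highest in implant 2 and NC 1, where the fibroblast, neuron and repair Schwann lists (Artn is in the last) were highest too, and the part of these lists was not tested. Nrtn, which encodes neurturin, had 10, 26 and 39 counts in the implant libraries, and 16, 13 and 92 counts in the NC libraries. Pspn, which encodes persephin, averaged 3.42 ± 0.90 CPM with the implant and 4.98 ± 1.10 CPM in NC, a log2 fold change of -0.54 ± 0.32 (edgeR p 0.137, adjusted p 1.00). Gdf15 had 4 to 6 counts in the implant libraries and 6 to 11 in the NC libraries and did not pass the filter. None of the 3 tested ligands passed the test.

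Beyond the 10 genes, no other gene of the pathway passed the test in either direction. Of 8 other receptors and co-receptors 6 were tested, with 4 positive and 2 negative log2 fold changes and a median of 0.10. Lrig3, Sorl1 and Met had the smallest p among them, and their log2 fold changes were -0.20 ± 0.19, -0.50 ± 0.62 and 0.17 ± 0.26. Of 28 adaptors and kinases downstream of Ret, 26 were tested, 13 positive and 13 negative, with a median of 0.00. Dok5, an adaptor that binds Ret, had 18, 21 and 9 counts in the implant libraries, and 12, 3 and 2 counts in the NC libraries, and its log2 fold change was 1.48 ± 0.70 (edgeR p 0.0779, adjusted p 1.00). Map2k1, a kinase that activates ERK, averaged 63.9 ± 5.45 CPM with the implant and 59.0 ± 2.34 CPM in NC. Sos1, which loads RAS with GTP, averaged 44.6 ± 1.59 CPM with the implant and 47.5 ± 2.90 CPM in NC.

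Of 21 other targets and feedback inhibitors of ERK signalling 20 were tested, 13 positive and 7 negative, with a median of 0.07. The smallest p belonged to 2 phosphatases, Dusp2 and Dusp5, and to Spred1, an inhibitor of RAS-ERK signalling. Dusp2 stood at 3.98, 3.15 and 2.71 CPM in the implant libraries, and at 1.45, 2.02 and 2.89 CPM in the NC libraries, where NC 3 lay above implant 3. Dusp5 stood at 4.27, 3.26 and 4.13 CPM in the implant libraries, and at 1.97, 2.83 and 3.69 CPM in the NC libraries, where NC 3 lay above implant 2. Their log2 fold changes were 0.63 ± 0.36 and 0.46 ± 0.32, and that of Spred1 was 0.17 ± 0.18. In none of these lists did any tested gene have groups that did not overlap, against 5.68% of all tested genes.

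**Figure D5:**
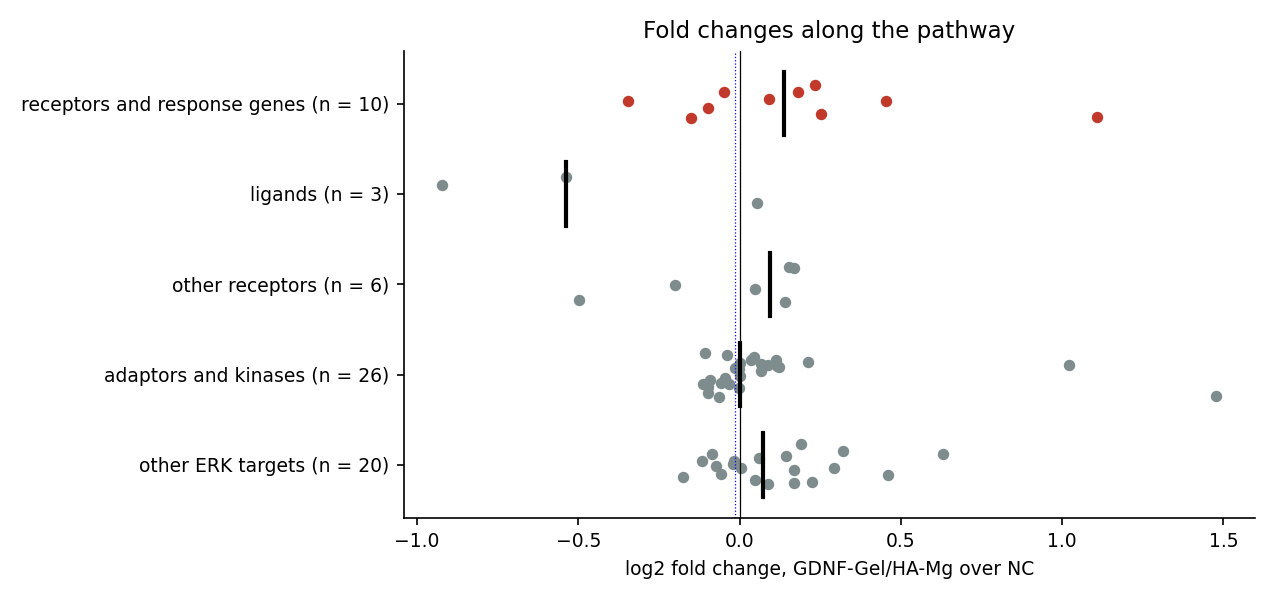
Log2 fold change (x axis, GDNF-Gel/HA-Mg over NC, edgeR) of each tested gene, by list; each dot is a gene, black bars are list medians, and the dotted line is the median of all tested genes. The adaptors and kinases lie near 0 except Dok6 (1.02) and Dok5 (1.48), both read few times.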

How the data were processed

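The authors deposited estimated counts (expected counts) per gene, most of them whole numbers; no source used here states the counter, the build or the annotation. Per the submitters' processing notes, Bowtie2 2.2.8, HISAT2, StringTie 1.3.1 and DESeq2 were used, with no role stated. Per the labels' protocols, mRNA was enriched with oligo(dT) beads and made into libraries with a NEBNext Ultra RNA kit, which does not mark strand. Columns named Con were assigned to NC, and those named Gel_HA-Mg, which leave out GDNF, to the only implant group. No pair of libraries agreed within sampling noise (chi-square test).

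Counts were rounded, filtered with filterByExpr (13999 genes left), scaled by TMM and compared with edgeR 4.0.16 under R 4.3.3 (two-sided quasi-likelihood test with group as its only term). A call needed a p under 0.05 after Benjamini-Hochberg adjustment over all tested genes. The SE is the log2 fold change over the root of F, and 95% intervals are approximate. The biological coefficient of variation was 0.384. Log2 CPM used a prior count of 2. The scripts were tested on simulated counts. The 10 genes and all lists were chosen with earlier results of these data known. The text names all 10, every ligand and the 3 genes of smallest p in each wider list; Dok6, Etv1 and the other denominators were named after their values were seen. Alternatives were RLE and upper quartile scaling, TMM without haemoglobin genes, 2 other filters, DESeq2 1.42.0, limma-voom (limma 3.58.1), a replicate block and each library left out. Figures were drawn with matplotlib 3.10.9.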

Additional observations from a re-analysis of the deposited data

How the results depend on the processing

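The edgeR count of called genes was 0 under every scaling, filter, limma-voom, the replicate block and each library left out (0 to 0), and 11 with DESeq2; the cause was not tested. The median log2 fold change of the 10 genes moved by less than the spread between libraries of a group (0.42 log2 units) under each alternative, and lay between -0.04 and 0.24 over the runs that left out 1 library. No value of a single gene passed the threshold, over 140 values from 10 genes and 14 alternatives (smallest adjusted p 0.963). None of the 80 values under another scaling, filter, test or block changed sign, and 11 of the 60 with a library left out did. Over those runs the log2 fold change spanned -0.30 to 0.83 for Ret, -0.47 to 0.28 for Gfra3, -0.28 to 0.90 for Ncam1, -0.34 to 0.054 for Etv5 and -0.16 to 0.11 for Spry2. The Etv4 difference per Schwann lineage signal was 0.84 to 1.27 with a library left out, and 0.86 with Sox10, Erbb3, Foxd3, Cdh19 and Sox2 alone as the list, a choice made after seeing the data. The labels do not say whether shared replicate numbers pair the libraries. Deviations from the group means correlated at 0.10, -0.72 and 0.06 over genes for numbers 1, 2 and 3, and 0 of 6 libraries correlated best with its own number. Deviations from means of 3 libraries sum to 0 within a group, so these correlations are tied together and cannot decide pairing. With the replicate block, 187 genes had an unadjusted p under 0.05 and the median of the 10 genes was 0.21. Counts were lowest in NC 3 for Ret (19), Etv4 (13) and Gfra3 (26). The standard error was 0.58 for Ret, and 0.60 and 0.58 for Ncam1 and Gfra2, which had at least 288 and 211 counts. The part of low counts in these standard errors was not tested.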
